A study of Mus musculus with 13 samples.

Results

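Glycolysis splits glucose into pyruvate in the cytosol, and lactate dehydrogenase can turn that pyruvate into lactate. Dividing cells often keep a high flux through it, and most of its steps are served by several isozymes whose use differs between tissues and between dividing and mature muscle. The genes described here are 10 glycolytic enzymes, taken by symbol from a deposited gene-level table of 23236 rows: Hk2, Gpi1, Pfkp, Aldoa, Tpi1, Gapdh, Pgk1, Pgam1, Pkm2 and Ldha. All 10 were found, each as a row of its own with status OK, and all 10 had a mean of at least 1 FPKM (a fragment count corrected for transcript length and for the number of mapped fragments).

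The values come from RNA-seq of C2C12 cells, an established mouse myoblast line, in a library labelled siLinc-Yy1 and a library labelled siNC. By the usual reading of these names they stand for an siRNA against Linc-Yy1, a long noncoding RNA named for the neighbouring gene Yy1, and for a control siRNA. Both libraries are labelled with the myoblast stage, which by the labels' protocol is kept in growth medium, and both came from poly(A)-selected RNA; the siRNA dose and the time after transfection are not given in the labels. There is 1 library per condition of 1 cell line, so no value below has a replicate check, no difference was tested, and each describes these libraries and not the conditions. The other 11 of the 13 samples of the series were not analysed here.

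The lincYy1 row itself was scarce, at 0.227 FPKM in siLinc-Yy1 and 0.360 FPKM in siNC, with a q-value of 0.878 in the authors' deposited table. Of 7 myoblast markers, Myod1, the muscle determination factor, measured 67.0 FPKM in siLinc-Yy1 and 62.5 FPKM in siNC. Cdh15, the muscle cadherin, measured 99.0 and 98.4 FPKM in the same order. Others of the 7 were scarce, with Pax7 at 2.38 and 2.77 FPKM and Msc at 2.63 and 3.92 FPKM in that order. Markers of differentiated muscle were also present, with Acta1 at 91.3 FPKM in siLinc-Yy1 and 78.0 FPKM in siNC, and Myog at 19.4 and 22.8 FPKM. Division markers were present at like levels, with Mki67 at 52.4 FPKM in siLinc-Yy1 and 51.8 FPKM in siNC. The 7 division markers had a median log2 ratio of 0.023, with 6 higher and 1 lower in siLinc-Yy1. Against other rows of similar mean FPKM, a comparison described below, all 7 lay below the median, with a median difference of -0.13. Ccna2 measured 76.1 FPKM in siLinc-Yy1 and 68.0 FPKM in siNC, Birc5 129 and 116 FPKM in that order, and Pcna 165 and 149 FPKM. Of 9 markers of other cell types, 8 had a mean below 1 FPKM and Alb was listed at 0 in both libraries. In bulk RNA, fewer cells of a type and less RNA per cell cannot be told apart.

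Of the 10 enzymes, 9 had a higher FPKM in siLinc-Yy1 than in siNC, and Hk2 had a lower one by 0.236 FPKM; with the summed FPKM of both libraries made equal, 8 were higher and 2 lower, Hk2 and Pfkp. Together they summed to 6281 FPKM in siLinc-Yy1 and 3926 FPKM in siNC, a ratio of 1.60. Differences are given as the log2 ratio of siLinc-Yy1 over siNC after 1 FPKM was added to each value, which understates the change of low genes. The median log2 ratio of the 10 was 0.59, against -0.021 over the 11792 rows with a mean of at least 1 FPKM. A difference of 1.5-fold or more upward was met by 5 of the 10 (Pkm2, Tpi1, Aldoa, Ldha and Pgam1), against 3.28% of all rows of at least 1 FPKM. None of the 10 was at least 1.5-fold lower, as were 0.517% of those rows. Among abundant rows, those with a mean of at least 150 FPKM, the share at least 1.5-fold higher was 34.7%, and 5 of the 8 enzymes in that range met it. None of the 10 was called in the authors' deposited table, against 1.62% of the rows with status OK.

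**Figure D1:**
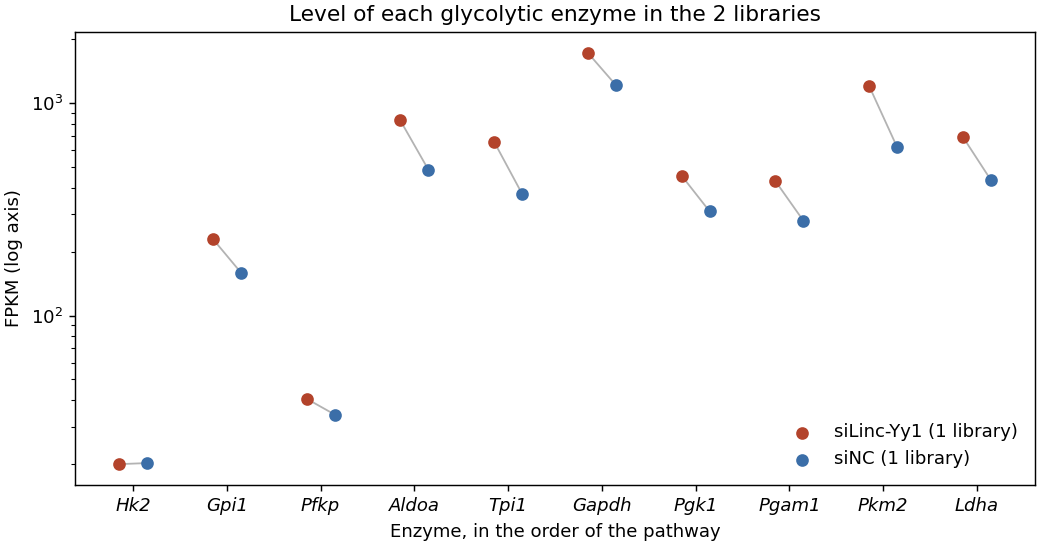
FPKM on a log axis of each enzyme in the siLinc-Yy1 library (left point) and the siNC library (right point), with a line joining the 2 values of an enzyme. Hk2 and Pfkp lie far below the other 8 enzymes, which stand between 159 and 1723 FPKM, and in these deposited values Hk2 alone has its left point no higher than its right one.

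The start regions of the 10 genes were searched for the letters ACGTG on either strand, a form of the core recognised by hypoxia-inducible factor. These letters overlap the E-box CACGTG recognised by Myc. Other forms of that core were not searched, so a window without a match may hold one. RefSeq (GRCm38.p6, a different build from the table) gave 14 windows of 250 bases before a start for the 10 genes. Of these 14 windows, some of which overlap, 7 held the letters, against 16.6% of 32851 windows of the same length over the genome. At least 1 such window was found for 6 of the 10 genes, and the like share of all genes was not computed. The 16.6% counts windows of all genes, whatever their level or base composition, so the 2 shares do not measure an enrichment. A match describes the letters in the window and is not evidence of binding. Those shown have the most matches (Ldha), a pair of matches (Pgk1 and Hk2) or no match (Tpi1), 5′ to 3′, with the matches in capitals.
Ldha, chr7:46845554-46845803 (plus strand): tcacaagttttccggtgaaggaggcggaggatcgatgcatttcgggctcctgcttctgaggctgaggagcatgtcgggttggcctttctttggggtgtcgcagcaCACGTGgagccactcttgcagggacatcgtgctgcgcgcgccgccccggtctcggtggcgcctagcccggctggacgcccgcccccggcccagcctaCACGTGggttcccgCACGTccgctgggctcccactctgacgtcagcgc
Pgk1, chrX:106186850-106187099 (plus strand): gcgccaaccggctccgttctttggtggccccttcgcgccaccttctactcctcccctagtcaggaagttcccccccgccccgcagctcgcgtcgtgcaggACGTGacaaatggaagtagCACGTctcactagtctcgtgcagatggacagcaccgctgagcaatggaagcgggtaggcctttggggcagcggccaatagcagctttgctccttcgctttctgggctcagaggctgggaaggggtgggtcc
Hk2, chr6:82774455-82774704 (minus strand): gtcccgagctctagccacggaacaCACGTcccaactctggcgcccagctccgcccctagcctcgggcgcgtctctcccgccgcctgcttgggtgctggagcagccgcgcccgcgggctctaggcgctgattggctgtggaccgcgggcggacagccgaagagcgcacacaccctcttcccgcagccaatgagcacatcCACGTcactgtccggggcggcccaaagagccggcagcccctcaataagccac
Tpi1, chr6:124814159-124814408 (minus strand): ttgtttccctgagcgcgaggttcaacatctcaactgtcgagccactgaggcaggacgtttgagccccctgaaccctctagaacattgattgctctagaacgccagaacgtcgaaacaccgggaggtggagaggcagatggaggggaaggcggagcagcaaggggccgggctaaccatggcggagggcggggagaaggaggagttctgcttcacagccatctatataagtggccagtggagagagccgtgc
The Ldha window shown holds 3 places, 2 of them the full CACGTG, while the window of the other Ldha start holds none. The Hk2 and Pgk1 windows hold 2 places each, and the Tpi1 window holds none. Any relation of these letters to the differences was not tested. Which starts the cells used was not examined.

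Of the enzymes that prime glucose for cleavage, Hk2 and Pfkp were the scarcest of the 10. Hk2, the hexokinase that traps glucose as glucose 6-phosphate and can dock on mitochondria, measured 19.98 FPKM in siLinc-Yy1 and 20.21 FPKM in siNC. Its log2 ratio under the deposited scaling was -0.016. Taking the depth estimate given at the end of these results, each kilobase of Hk2 transcript drew about 852 fragments in siLinc-Yy1 and 1205 in siNC. At that 1 kilobase and under the deposited scaling, the FPKM ratio of 0.988 had an exact binomial interval (95%) of 0.905 to 1.08, which includes 1; with the summed FPKM of both libraries made equal, the log2 ratio of Hk2 was -0.32. Gpi1, the isomerase that makes fructose 6-phosphate, measured 230 FPKM in siLinc-Yy1 and 159 FPKM in siNC, a log2 ratio of 0.52. Pfkp, the platelet-type subunit of phosphofructokinase, which commits the sugar to glycolysis, measured 40.6 FPKM in siLinc-Yy1 and 34.2 FPKM in siNC, a log2 ratio of 0.24.

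Both enzymes of the cleavage stage were well above these levels. Aldoa, the aldolase that splits the primed sugar, measured 829 FPKM in siLinc-Yy1 and 485 FPKM in siNC. Tpi1, which interconverts the resulting triose phosphates, measured 658 FPKM in siLinc-Yy1 and 373 FPKM in siNC. Their log2 ratios of 0.77 and 0.82 were the third and the second highest of the 10, and they differed by less than 0.1.

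The energy-yielding phase opened with the most abundant of the 10. Gapdh, which oxidises the triose phosphate, measured 1723 FPKM in siLinc-Yy1 and 1213 FPKM in siNC, a log2 ratio of 0.51. It was the highest of all rows of the table in siNC and ranked 10 in siLinc-Yy1. Pgk1, which makes the first ATP of the payoff phase, measured 455 FPKM in siLinc-Yy1 and 309 FPKM in siNC, and Pgam1, the non-muscle phosphoglycerate mutase, measured 430 FPKM in siLinc-Yy1 and 279 FPKM in siNC. These 3 neighbours in the pathway had log2 ratios between 0.51 and 0.62.

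The end of the pathway held the largest difference. Pkm2, the row of the pyruvate kinase gene now called Pkm, measured 1204 FPKM in siLinc-Yy1 and 618 FPKM in siNC, a ratio of 1.95 and a log2 ratio of 0.96. The gene makes the M1 and M2 forms by alternative splicing, and the row does not separate them, whatever its name. Ldha, the lactate dehydrogenase subunit that favours lactate formation, measured 693 FPKM in siLinc-Yy1 and 433 FPKM in siNC, a log2 ratio of 0.68.

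A share of the 10-enzyme sum does not depend on how the libraries were scaled. Gapdh made up 27.4% of it in siLinc-Yy1 and 30.9% in siNC, the largest loss of share among the 10. Pkm2 made up 19.2% in siLinc-Yy1 and 15.8% in siNC, the largest gain. Ldha held 11.0% in both libraries, and Hk2 held 0.318% in siLinc-Yy1 and 0.515% in siNC. For each Hk2 unit of FPKM there were 60.3 of Pkm2 in siLinc-Yy1 and 30.6 in siNC. Such shares and ratios do not remove a difference that grows with level. Both genes lay close to the median log2 ratio of rows of similar level, described below, which was 0.96 for Pkm2 and -0.027 for Hk2. As part of the summed FPKM of all single-gene rows with status OK, the 10 enzymes took 1.40% in siLinc-Yy1 and 1.09% in siNC.

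On the mm9 build, with positions counted from 1, the rows lie on several chromosomes: Hk2 at chr6:82675021-82724448, Tpi1 at chr6:124758959-124764314 and Gapdh at chr6:125111870-125115601. Gpi1 lies at chr7:34986346-35015324, Ldha at chr7:54101174-54110997 and Aldoa at chr7:133938748-133943961. Pkm2 lies at chr9:59504175-59527182, Pfkp at chr13:6547403-6647970, Pgam1 at chr19:41986361-41993155 and Pgk1 at chrX:103382463-103399038. The span of Pfkp overlaps that of Pitrm1 and the span of Tpi1 overlaps that of Spsb2. Pitrm1 measured 44.1 FPKM in siLinc-Yy1 and 40.8 FPKM in siNC, so reads in the shared part could have been given to either gene, while Spsb2 stood at 16.3 FPKM in siLinc-Yy1 and 16.1 FPKM in siNC, far below Tpi1. Gapdh and other glycolytic genes have processed copies in the mouse genome, and how the authors' counting divided reads among copies is not given in the sources used here.

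The difference between the libraries grew with level over the whole table, so the enzymes were set beside rows of similar level. Among other rows, the median log2 ratio was 0.026 at 20 to 50 FPKM, where Hk2 and Pfkp lie. It was 0.28 at 100 to 200 FPKM, the class of Gpi1, and 0.45 at 200 to 400 FPKM, the class of Pgk1 and Pgam1. It reached 0.74 at 400 to 800 FPKM, the class of Aldoa, Tpi1 and Ldha, and 1.03 at 800 FPKM and above, the class of Gapdh and Pkm2. Across the 10 enzymes, which share both libraries, Spearman's rho between log2 ratio and mean FPKM was 0.61. It was 0.93 across the 9 without Gapdh. Leaving out Gapdh removes the enzyme farthest from rows of its level, and mean FPKM holds both values of the ratio. Neither rho is therefore a test.

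**Figure D2:**
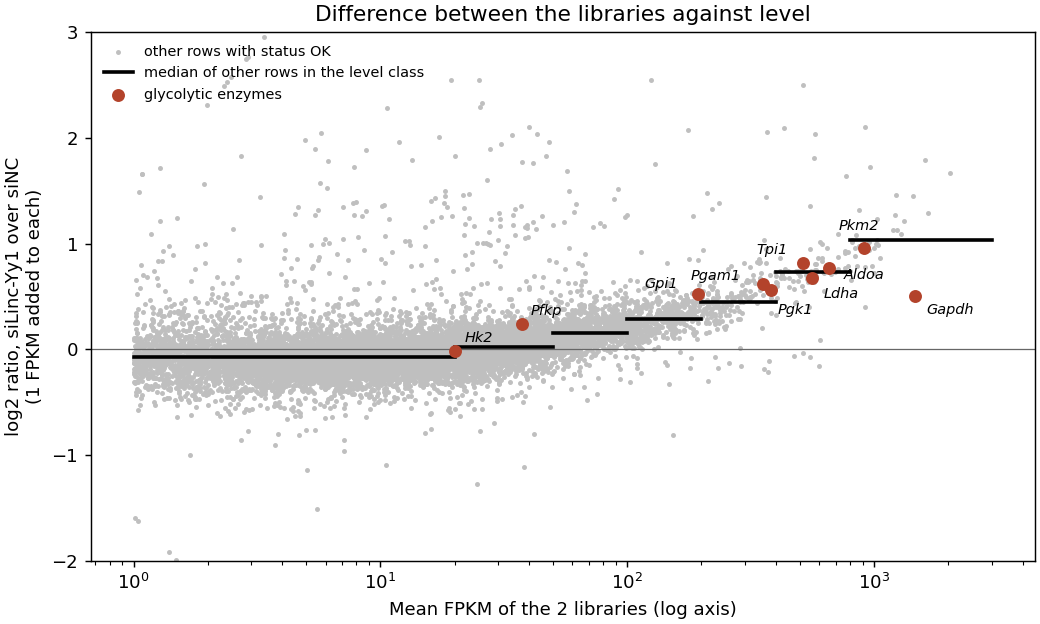
The log2 ratio of siLinc-Yy1 over siNC against mean FPKM (log axis) for single-gene rows with status OK; grey points are other rows, red points the 10 enzymes, and black lines the median of the other rows in each level class (the topmost class has no upper limit and its line runs past the data). The 9 enzymes other than Gapdh climb with the other rows, from Hk2 at -0.016 to Pkm2 at 0.96, while Gapdh sits at 0.51 below the line at 1.03; 14 grey points fall outside the vertical axis.

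For each enzyme the rows of similar level were all other single-gene rows with status OK whose mean FPKM lay within a factor of 5/4. The median over the 10 enzymes of the difference from the median of such rows was 0.0069, with 6 enzymes above and 4 below. For 7 of the 10 the difference was under 0.1 in size, and 9 of the 10 lay between the 5th and 95th percentiles of their rows. Pkm2, at a log2 ratio of 0.96, stood beside a median of 0.96 over 31 rows, and Aldoa, at 0.77, beside a median of 0.77 over 43 rows. Pgam1, at 0.62, stood beside 0.61 over 77 rows and Hk2, at -0.016, beside -0.027 over 1609 rows. Tpi1 was 0.088 above its rows, while Ldha was 0.053 and Pgk1 0.087 below theirs. Many of these abundant rows are ribosomal: 33 of the 59 rows beside Tpi1 and 29 of the 51 beside Ldha carry Rpl or Rps names.

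Pfkp and Gpi1 stood toward the upper edge of their levels. Pfkp was 0.19 above the median of its 1204 rows, of which 91.6% had a lower log2 ratio. Gpi1 was 0.17 above the median of its 195 rows, of which 89.7% had a lower one. Neither lay outside the 5th to 95th percentile range of its rows, which ran from -0.17 to 0.31 for Pfkp and from 0.15 to 0.62 for Gpi1.

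Gapdh was the exception in the other direction. Its log2 ratio of 0.51 was below that of all 10 rows of similar level, whose values ran from 1.09 to 3.29 with a median of 1.28, a difference of -0.77. They included Rps26, Rpl35, Rps15, Fth1, Eef1a1, Lgals1, Tmsb10, Snord49b and Gm20594, and the authors' deposited table called 5 of the 10. When rows were matched on siNC alone, the 1 match was Rpl41, a ribosomal protein gene with a log2 ratio of 1.67, and the difference was -1.17. With the 50 nearest rows, most of them less abundant, it was -0.48. Gapdh had the highest siNC value of all rows, so every row it was matched with had a lower siNC value. Its place below rows matched on mean FPKM was therefore set in part by the matching.

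**Figure D3:**
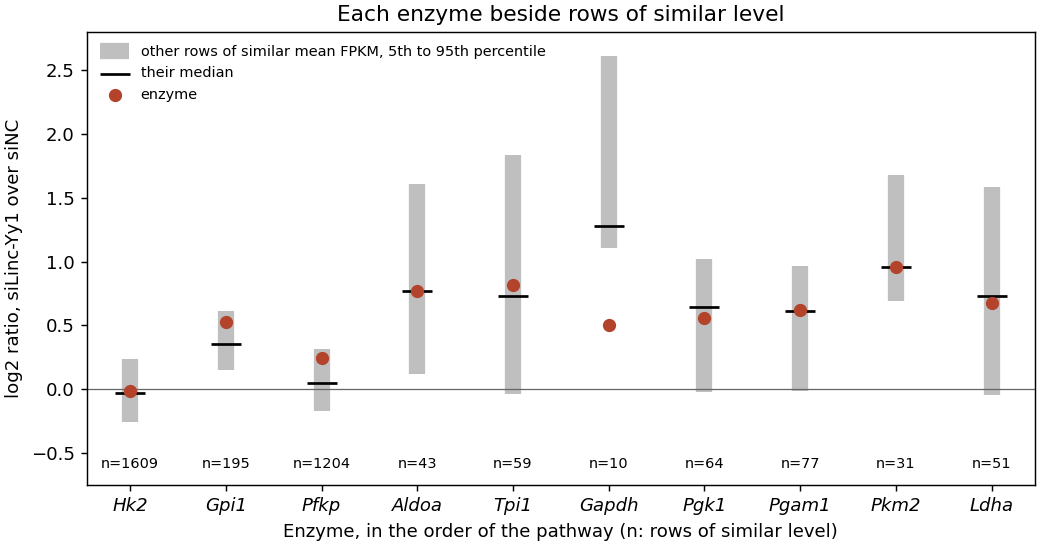
For each enzyme, in pathway order, the log2 ratio of siLinc-Yy1 over siNC (red point) beside the median (black dash) and the 5th to 95th percentile (grey bar) of other rows within a factor of 5/4 in mean FPKM, whose number is printed below. Pkm2, Aldoa, Pgam1 and Hk2 lie on the dash, Gpi1 and Pfkp in the upper part of the bar, and Gapdh at 0.51 below a bar that starts at 1.10. All rows matched to Gapdh had a lower siNC value than Gapdh, which limits that comparison.

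Gapdh is widely used as a reference for other transcripts, so its ratio to other common reference genes was computed within each library, which no scaling moves. Relative to 8 of 14 such genes Gapdh was higher in siLinc-Yy1 than in siNC, and relative to 6 it was lower. The change of the ratio ran from -0.54 on the log2 scale against B2m, the small subunit of class I histocompatibility molecules, to 0.90 against Tfrc, the transferrin receptor. Against Actb, cytoplasmic actin, the ratio was 1.30 in siLinc-Yy1 and 1.78 in siNC. Against Hprt, a purine salvage enzyme of moderate level, it was 41.6 in siLinc-Yy1 and 27.2 in siNC. Of the 14 genes, 9 were higher and 5 lower in siLinc-Yy1, 6 by at least 1.5-fold upward. Rplp0, a ribosomal stalk protein, measured 1212 FPKM in siLinc-Yy1 and 608 FPKM in siNC, and B2m 481 FPKM in siLinc-Yy1 and 234 FPKM in siNC. Alone of the 14, B2m was called in the authors' deposited table, as higher, and it stood 0.42 above rows of similar level. The row of Ywhaz has status FAIL there. Actb itself measured 1325 FPKM in siLinc-Yy1 and 682 FPKM in siNC, and Hprt 41.4 FPKM in siLinc-Yy1 and 44.6 FPKM in siNC. A transcript expressed per Gapdh and the same transcript expressed per Hprt would thus differ in their siLinc-Yy1 over siNC value by 0.61 on the log2 scale. Hprt and Tfrc were picked after their values were seen.

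Isozymes of the same step were compared within each library. Hk1, the broadly expressed hexokinase, was the main one, at 113 FPKM in siLinc-Yy1 and 97.4 FPKM in siNC. Hk2 therefore made up 14.99% of the summed Hk1 and Hk2 level in siLinc-Yy1 and 17.2% in siNC. Pfkl, the liver-type phosphofructokinase subunit, exceeded Pfkp, at 87.6 FPKM in siLinc-Yy1 and 74.6 FPKM in siNC. Pfkm, the muscle-type subunit, stood close to Pfkp, at 35.6 FPKM in siLinc-Yy1 and 33.5 FPKM in siNC. Pfkp held 24.8% of the summed level of these 3 subunits in siLinc-Yy1 and 24.0% in siNC.

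Below these branching steps the listed member was nearly alone. Aldoa made up 99.8% of Aldoa and Aldoc in siLinc-Yy1 and 99.7% in siNC. The row named Aldoart2, with a mean of 7.0 FPKM and a log2 ratio of -0.35, was not counted in that share. Pgam1 made up 98.8% of Pgam1 and Pgam2 in siLinc-Yy1 and 98.3% in siNC, with Pgam2, the mutase of mature muscle, at 5.18 FPKM in siLinc-Yy1 and 4.95 FPKM in siNC. Ldha made up 99.0% of Ldha and Ldhb in siLinc-Yy1 and 98.2% in siNC. Ldhb, the subunit typical of heart, measured 6.77 FPKM in siLinc-Yy1 and 8.14 FPKM in siNC, so the Ldha and Ldhb values differed in opposite directions. Aldoc measured 1.64 FPKM in siLinc-Yy1 and 1.37 FPKM in siNC.

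Enolase, the step between Pgam1 and Pkm2, is not among the 10. Its main row names Eno1 together with Gm5506 and measured 436 FPKM in siLinc-Yy1 and 315 FPKM in siNC, a log2 ratio of 0.47 that cannot be given to either gene alone. Eno3, the enolase of mature muscle, measured 264 FPKM in siLinc-Yy1 and 228 FPKM in siNC, and Eno2, the neuronal one, 11.2 FPKM in siLinc-Yy1 and 11.1 FPKM in siNC. Eno3 was thus far above Pgam2 and Pfkm, muscle isozymes of other steps, and its difference from rows of similar level was -0.19. Of the 19 listed other glycolytic enzymes and isozymes, 18 had a row of their own and 10 reached a mean of 1 FPKM. Of these 10, 8 were higher and 2 lower in siLinc-Yy1, none by 1.5-fold, with a median log2 ratio of 0.068. The lower ones were Ldhb and Bpgm, which makes 2,3-bisphosphoglycerate, at 11.9 FPKM in siLinc-Yy1 and 13.7 FPKM in siNC. Adpgk, an ADP-dependent glucokinase, measured 18.4 FPKM in siLinc-Yy1 and 18.2 FPKM in siNC.

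**Figure D4:**
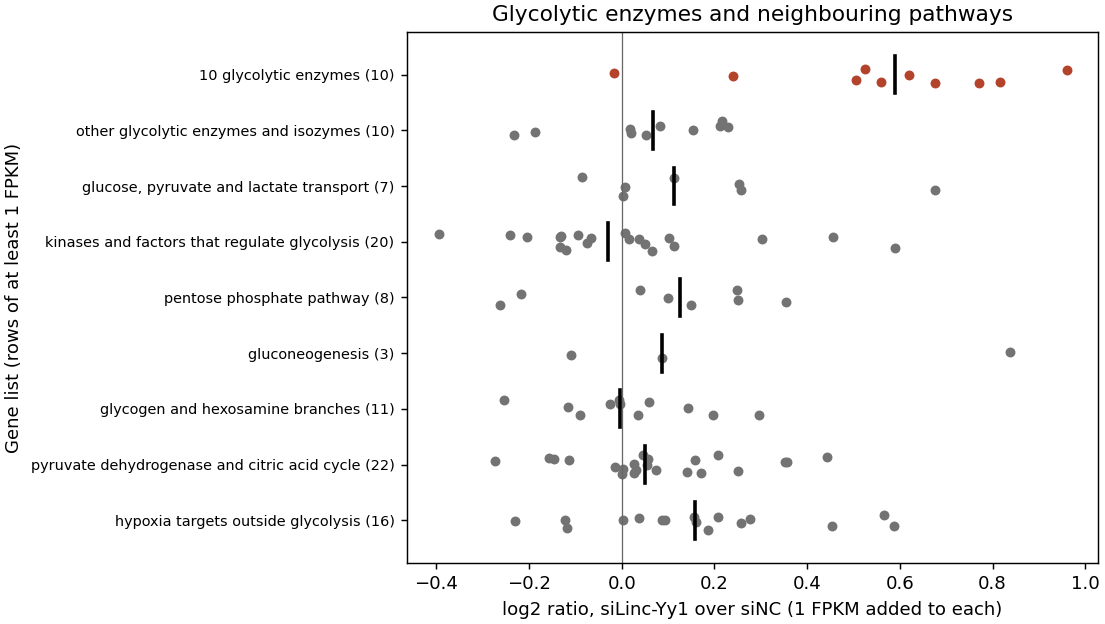
The log2 ratio of siLinc-Yy1 over siNC for each row of at least 1 FPKM in the 10 glycolytic enzymes (red) and in 8 lists of related genes (grey), with the number of rows in brackets and the median of each list as a black line. The line of the 10 enzymes is at 0.59, and those of the other lists lie between -0.030 and 0.16. The lists are not matched for level: their median level is 449 FPKM for the 10 enzymes and 7.9 to 62 FPKM for the others. Against rows of similar level, the median difference was 0.0069 for the 10 enzymes. It ran from -0.086 to 0.15 over the other 8 lists.

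Genes that bring sugar in and carry lactate out had a median log2 ratio of 0.11 over 7 rows of at least 1 FPKM, with 6 higher and 1 lower in siLinc-Yy1. Slc2a1, the main glucose transporter of dividing cells, measured 82.8 FPKM in siLinc-Yy1 and 69.3 FPKM in siNC. Slc16a1, a lactate and pyruvate carrier, measured 39.2 FPKM in siLinc-Yy1 and 32.6 FPKM in siNC. Bsg, the chaperone of that carrier, was the one row at least 1.5-fold higher, at 427 FPKM in siLinc-Yy1 and 267 FPKM in siNC, and it stood 0.096 above rows of its level.

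Regulators did not share a direction. Of 20 measured kinases and factors, 10 were higher and 10 lower, with a median of -0.030. Against rows of similar level, 13 stood above and 7 below, with a median difference of 0.043. Myc, a transcription factor known to drive glycolytic genes, measured 48.3 FPKM in siLinc-Yy1 and 31.8 FPKM in siNC, a log2 ratio of 0.59. Txnip, which restrains glucose uptake, measured 51.4 FPKM in siLinc-Yy1 and 37.2 FPKM in siNC. Vhl, which marks hypoxia-inducible factor for destruction, measured 6.11 FPKM in siLinc-Yy1 and 8.35 FPKM in siNC. Myc was 0.53 and Txnip 0.39 above rows of similar level, and Vhl 0.30 below. Hif1a, the inducible subunit of that factor, measured 64.6 FPKM in siLinc-Yy1 and 52.2 FPKM in siNC, and Pdk1, which shuts pyruvate dehydrogenase, 16.2 and 16.1 FPKM in the same order; both were named after their values were seen. In the authors' deposited table none of these 5 was called.

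Hypoxia targets outside glycolysis had a median of 0.16 over 16 rows, with 13 higher and 3 lower, and 12 of the 16 stood above the median of rows of similar level. Ndrg1 measured 48.1 FPKM in siLinc-Yy1 and 32.1 FPKM in siNC, and Ddit4, an inhibitor of mTORC1 signalling, 61.0 FPKM in siLinc-Yy1 and 44.3 FPKM in siNC. Vegfa, the vascular growth factor, measured 94.6 FPKM in siLinc-Yy1 and 62.6 FPKM in siNC, but its row has status FAIL in the authors' deposited table. Ndrg1 and Ddit4 also belong to stress responses other than hypoxia.

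Pathways that branch from or follow glycolysis differed less between the libraries than the 10 enzymes, at lower levels. The 8 pentose phosphate genes had a median of 0.12, and Taldo1, transaldolase, measured 118 FPKM in siLinc-Yy1 and 92.4 FPKM in siNC. In the same list Pgd, 6-phosphogluconate dehydrogenase, measured 129 FPKM in siLinc-Yy1 and 108 FPKM in siNC, and Rpe, ribulose phosphate epimerase, 7.83 FPKM in siLinc-Yy1 and 9.60 FPKM in siNC. The 22 pyruvate dehydrogenase and citric acid cycle genes had a median of 0.050, and 17 of them lay below the median of rows of similar level. Mdh2, mitochondrial malate dehydrogenase, measured 332 FPKM in siLinc-Yy1 and 244 FPKM in siNC, and Cs, citrate synthase, 197 FPKM in siLinc-Yy1 and 154 FPKM in siNC. Glycogen and hexosamine genes had a median of -0.0036 over 11 rows. There, Pygm, muscle glycogen phosphorylase, measured 4.09 FPKM in siLinc-Yy1 and 3.14 FPKM in siNC, Ugp2 14.0 FPKM in siLinc-Yy1 and 16.9 FPKM in siNC, and Pgm2 84.7 FPKM in siLinc-Yy1 and 73.7 FPKM in siNC.

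Gluconeogenesis runs part of the pathway backward, and 3 of its 7 genes reached 1 FPKM. Pck2, the mitochondrial phosphoenolpyruvate carboxykinase, measured 37.7 FPKM in siLinc-Yy1 and 20.7 FPKM in siNC, a log2 ratio of 0.84, and was called higher in the authors' deposited table. It stood 0.82 above rows of similar level. Pcx, pyruvate carboxylase, measured 6.29 FPKM in siLinc-Yy1 and 6.87 FPKM in siNC, and G6pc3 30.1 FPKM in siLinc-Yy1 and 28.3 FPKM in siNC.

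Markers of differentiated muscle, which uses its own isozymes at some steps of glycolysis, also differed between the libraries. Of 11 markers 9 reached 1 FPKM, 7 higher and 2 lower in siLinc-Yy1, with a median log2 ratio of 0.39 and a median difference from rows of similar level of 0.48. The summed level over all 11 was 212 FPKM in siLinc-Yy1 and 165 FPKM in siNC. Ckm, muscle creatine kinase, measured 24.9 FPKM in siLinc-Yy1 and 14.5 FPKM in siNC. Tnnt3, a fast troponin, measured 52.3 FPKM in siLinc-Yy1 and 31.9 FPKM in siNC, and Myh4, a fast myosin, 11.1 FPKM in siLinc-Yy1 and 6.86 FPKM in siNC. The authors' deposited table called Ckm and Myh4 higher and Myh3, an embryonic myosin, lower. The part of these muscle markers in the enzyme values was not tested. Outside the 10 enzymes, the muscle isozymes Pgam2, Pfkm and Eno3 had log2 ratios of 0.053, 0.082 and 0.21. Which of the 10 enzymes also serve mature muscle was not examined, so these isozymes do not stand for all those of muscle. Against rows of similar level, Pgam2 was 0.16 and Pfkm 0.045 above, and Eno3 differed by -0.19. Of the 7 myoblast markers 5 were higher and 2 lower; Vim measured 1366 FPKM in siLinc-Yy1 and 749 FPKM in siNC, Des 487 FPKM in siLinc-Yy1 and 322 FPKM in siNC, and Msc 2.63 FPKM in siLinc-Yy1 and 3.92 FPKM in siNC. Of the markers of other cell types, whose summed level was 2.38 FPKM in siLinc-Yy1 and 2.18 FPKM in siNC, Fabp4 measured 1.63 FPKM in siLinc-Yy1 and 1.71 FPKM in siNC. The authors' deposited table called Cdh1 higher, at 0.379 FPKM in siLinc-Yy1 and 0.173 FPKM in siNC.

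The row most like each enzyme was taken as the one nearest to it in log2 FPKM over the 2 libraries, a likeness that rests on level as much as on difference. The nearest row was 1190005F20Rik for Hk2, Nid1 for Gpi1, Spop for Pfkp, Anxa2 for Aldoa and Hspb1 for Tpi1. It was Serpinh1 for Pgk1, Gpx4 for Pgam1, Rplp0 for Pkm2 and Rpl10 for Ldha. These 9 lay within 0.059 log2 units of their enzyme. The nearest to Gapdh was Eef1a1 at a distance of 0.56, with 2358 FPKM in siLinc-Yy1 and 967 FPKM in siNC.

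The authors' test carries an error model of its own, and the error of a fold change can be read from the deposited statistic as the size of the log2 fold change divided by the size of that statistic. For the 10 enzymes this implied standard error ran from 0.19 for Hk2 to 1.38 for Pkm2 on the log2 scale. The authors' deposited table gave the lowest p-value among the 10 to Tpi1, 0.0851 with a q-value of 0.713, and for no enzyme was the p-value under 0.05. Pkm2, with the largest fold change, had a p-value of 0.487 in the authors' deposited table, and Gapdh one of 0.556. The error of Pkm2 exceeded that of all but 2 of its 31 rows of similar level, whose median was 0.39, and the error of Gapdh, 0.86, all but 1 of its 10, whose median was 0.39. Hk2, at 0.19, was close to the median of 0.19 of its rows. The implied 95% interval crossed 0 for each of the 10 and ran from -1.75 to 3.67 for Pkm2.

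**Figure D5:**
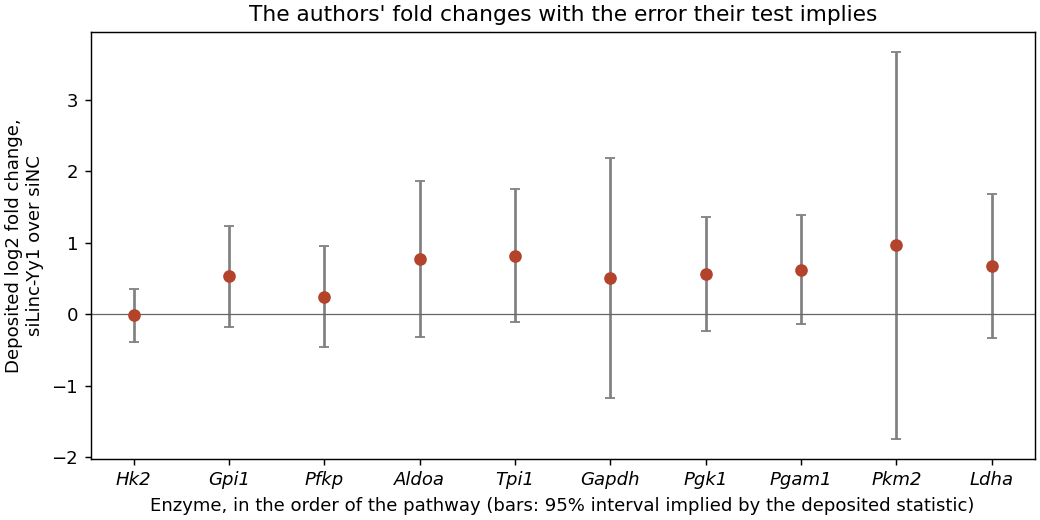
The log2 fold change (siLinc-Yy1 over siNC) that the authors deposited for each enzyme in pathway order (points), with the 95% interval implied by the deposited test statistic (bars). The interval is narrowest for Hk2 and widest for Pkm2, from -1.75 to 3.67, and every interval includes 0.

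The table gives no counts. The step of 1 fragment in short single-exon receptor rows put the depth at about 42600000 fragments for siLinc-Yy1 and 59600000 for siNC, assuming that FPKM had no added scaling between libraries and that the full row length was used. The FPKM at 1 fragment was 1.40 times as high in siLinc-Yy1 as in siNC. On this estimate each kilobase of Pkm2 transcript drew 51327 fragments in siLinc-Yy1 and 36876 in siNC, and counting error alone (95%) placed its ratio of 1.95 between 1.92 and 1.97. Counting error was therefore small beside the differences of the abundant enzymes, and it does not include the spread between cultures, which these data do not measure. With the summed FPKM of siLinc-Yy1 and siNC made equal, the median of all rows moved to -0.31, that of the 10 enzymes to 0.27, and Pfkp to -0.073, and 1 of the 10, Pkm2, stayed at least 1.5-fold higher, against 1.76% of all rows of at least 1 FPKM at that scaling.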

How the data were processed

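RNA-seq libraries labelled siLinc-Yy1 and siNC were read from 1 Cuffdiff gene table, deposited as 2 identical copies. Each value is an FPKM level that the authors computed with Cuffdiff for a gene in 1 library, and the p-value and q-value columns are the authors' test, deposited with them. The second and first value columns were taken as siLinc-Yy1 and siNC, per the file headers' order of conditions. The log2 fold change column is also the authors', deposited as siLinc-Yy1 over siNC. Per the submitters' processing notes, mm9, Cuffdiff 2.0.4, Cufflinks 2.1.1 and TopHat2 2.0.4 were used; the annotation and the handling of scaling, strand and shared reads remain not given in the sources used here. Row starts were found to count from 0 and are printed from 1.

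With Python 3.11.15, pandas 2.3.3 and scipy 1.17.1, log2 ratios used a pseudocount of 1 FPKM. Rows of similar level lay within a factor of 5/4 in mean FPKM. Both steps were tested on simulated data, in which the changes were larger than most differences from similar rows given here. How well small differences are resolved was not examined. The implied error assumes the normal statistic, whose two-sided tail gives the deposited p-values. The members and gene lists were chosen with earlier results of these data known. The text names the members, their isozymes of at least 1 FPKM, up to 3 rows per other list with the largest absolute log2 ratio and the row nearest to each member; other genes were chosen after their values were seen, and 1 gene that this rule names is not reported here. Alternatives covered pseudocount, scaling, fold, filter and the choice of similar rows. Depth is an estimate from low values, and intervals cover counting error only.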

Additional observations from a re-analysis of the deposited data

How the results depend on the processing

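With 1 library per condition no alternative has a replicate check. Of the 10 enzymes, 5 were at least 1.5-fold higher; this became 1 after rescaling to equal summed FPKM, where 1.76% of all rows of at least 1 FPKM met it, and 0 at a fold of 2, met by 1.39% of those rows, and stayed 5 with either pseudocount, with centring and with no filter. The median log2 ratio of 0.59 became 0.27 after rescaling to equal totals, 0.61 after centring on the median, 0.58 with a pseudocount of 5 FPKM and 0.62 without Gapdh. The median difference from rows of similar level, 0.0069, stayed near 0: it was 4.6e-05 with the 50 nearest rows, 0.033 with rows matched on siNC, -0.0036 with rows matched on siLinc-Yy1 and 0.036 without ribosomal protein, histone and small RNA rows. The share of summed FPKM held by the enzymes was 0.30 percentage points higher in siLinc-Yy1, and 0.45 when those 3 kinds of row were left out of the total. Hk2, at -0.016, turned to 0.0047 after centring and was at -0.32 after rescaling to equal totals, where Pfkp turned to -0.073; the cause was not tested beyond these constructions. Over the 5 other choices of similar rows, 8 enzymes kept the sign of their difference; Aldoa and Pgam1, both near 0, did not. Gapdh ran from -1.17 to -0.48, Gpi1 from 0.14 to 0.19 and Pfkp from 0.18 to 0.21. Per kilobase of transcript, Hk2 had the fewest fragments of the 10.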
